A study of Mus musculus with 4 samples.

Results

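The kinesins described here are the mouse genes of the kinesin superfamily outside the kinesin-2 family, and the question was which of their promoters carried RFX2 peaks in testis chromatin. The genes were every protein-coding gene whose symbol begins with Kif and a number, apart from Kif3a, Kif3b, Kif3c, Kif17 and Kif7. The rule took in 34 of 21853 protein-coding genes, on 15 chromosomes. One of the 34, Kif1bp, fits the rule by its symbol only, since it encodes a protein that binds kinesins and is no motor itself, and values without it are given where it counts. RFX2 chromatin immunoprecipitation followed by sequencing (ChIP-seq) had been performed on decapsulated testes of 2 wild type mice of a mixed background (C57BL/6, 129/Sv and FVB/N), with 1 input library per replicate, which makes 4 samples in all. The labels place these animals at postnatal day 29 to 30, whereas the text of the study speaks of dissociated germ cells from younger mice. No sample of a mutant lacking RFX2 was analysed here, and the peak lists hold no expression values, so neither the specificity of the antibody nor the cell types in the preparation could be checked.

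Kinesins are motors that move along microtubules or shorten them, using ATP. Some act in cilia and flagella, some in the spindle and at cell division, and others carry vesicles and organelles. Male germ cells use all of these at some stage, since they divide by mitosis and meiosis, stay linked by cytoplasmic bridges and then build a flagellum on an axoneme. RFX2 belongs to the Regulatory Factor X transcription factors. RFX2 and several of its relatives, though not all, can pair with themselves or each other and bind as dimers to the X-box. The X-box is an inverted repeat found in many promoters of ciliary genes, and a single binding site can serve several family members.

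The X-box was read from the data. The most enriched word of 8 bases at the summits of the combined peak list occurred in 40.5% of the summit windows and in 0.605% of the flanking windows, and extending it as an inverted repeat gave a palindrome of 14 bases, GTTGCCATGGCAAC. An X-box was called at 3 or fewer mismatches to this palindrome. The sites below are those of the 5 kinesins with a combined promoter peak and an X-box within 200 bp centred on the summit, followed by Kif27, which had a peak in replicate 1 only. Each line gives 30 bases of GRCm38 on the strand of the gene, and capitals mark the X-box.
Kif9 (chr9:110476959-110476988, plus strand): ggcttcctGTTGCCATGGCGACtgtgtaca
Kif18a (chr2:109280660-109280689, plus strand): ccgcgcgcGTTGCCACGGCGACgcccagga
Kif24 (chr4:41464833-41464862, minus strand): cttgtggcGTTGCCATGGGGATgtggcctg
Kif23 (chr9:61946864-61946893, minus strand): gcccttggGTTGCCAAGGAGACgagcgccc
Kif6 (chr17:49615131-49615160, plus strand): tggttactGTTGCTAGGGCAGCggtgtctg
Kif27 (chr13:58359084-58359113, minus strand): gctgcgccGTTGCCTTGAGAACaggtgaca

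Kif9 differed from the palindrome at 1 base and Kif18a at 2, and the sites of Kif24, Kif23, Kif6 and Kif27 each differed at 3. Counted from 1 at the 5′ end, with the base of the palindrome first, the substitutions were A12G in Kif9, T8C and A12G in Kif18a, C11G, A12G and C14T in Kif24, T8A, C11A and A12G in Kif23, C6T, T8G and A13G in Kif6, and A7T, G10A and C11G in Kif27. Read in the direction of transcription, the first 6 bases were intact in 5 of the 6 sites, and the last 6 bases were intact in none. Of the 15 substitutions, 1 lay in positions 1 to 6, 4 in positions 7 and 8 and 10 in positions 9 to 14. Among the 498 X-boxes at the summits of combined promoter peaks that met a single gene, the first 6 bases alone were intact in 32.7% and the last 6 alone in 23.9%, and 35.9% had neither intact. Of the 6 kinesin sites, Kif6 and Kif23 are in that class, since Kif9, Kif18a and Kif24 lay in peaks shared with another promoter and Kif27 had no combined peak, so the shares are given as a description.

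The next sequences come from the promoters of Kif1bp, Kif20b and Kif14, which had peaks in both replicates but no X-box in the window searched. Kif1b and Kif16b were of this kind too and are not printed. Their best matches within 200 bp centred on the replicate 1 peak had 6 and 5 mismatches. Capitals mark the best match within 200 bp centred on the combined summit or, for Kif20b, which had no combined peak, on the centre of the replicate 1 peak.
Kif1bp (chr10:62578553-62578582, minus strand): acagcttcGTTTCCTTGACGACggctgttg
Kif20b (chr19:34922190-34922219, plus strand): ccacgagcGTTGCTACTGCCCCatcggtcg
Kif14 (chr1:136466230-136466259, plus strand): ggcgggccGTCACCTAGGAGATagggcggg

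The match in Kif1bp had 4 mismatches (G4T, A7T, G10A and A12G) and lay 3 bp from the summit of the combined peak, which put it 1 mismatch beyond the limit. The match in Kif20b had 5 (C6T, T8C, G9T, A12C and A13C). In Kif14 the 200 bp at the summit held nothing closer than 7 mismatches, and the whole peak nothing closer than 5. A wider view of 120 bases, printed for a bound promoter with an X-box and a bound promoter without, contrasts Kif23 with Kif14. Neither window met an annotated exon.
Kif23 (chr9:61946819-61946938, minus strand): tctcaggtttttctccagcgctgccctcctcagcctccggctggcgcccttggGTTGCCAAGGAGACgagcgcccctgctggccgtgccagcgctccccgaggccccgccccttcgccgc
Kif14 (chr1:136466185-136466304, plus strand): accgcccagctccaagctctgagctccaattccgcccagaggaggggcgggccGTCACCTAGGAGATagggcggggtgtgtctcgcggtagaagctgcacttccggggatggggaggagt

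The promoters were then scored for peaks. A promoter was the stretch from 1000 bp upstream to 500 bp downstream of any annotated transcription start site (TSS), and a peak counted when it met that stretch by at least 1 bp. The lists of replicate 1 (39825 peaks) and replicate 2 (21274 peaks) give each peak a score on a −log10 scale that starts at 2.03 and 2.08. A combined list of 2726 stronger peaks gives −log10 p, from 43.2 upward, together with fold enrichment over local background and the summit. The combined list was treated as a call on the pooled reads of both replicates and is no further experiment. It may also have been filtered for peaks that repeat between the replicates, so absence from it can reflect either a low score or a lack of repetition. Read numbers are unknown for all lists, so that no difference in depth between the replicates could be taken into account.

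RFX2 peaks marked a minority of kinesin promoters, and these included strong ones. In the combined list 7 of the 34 genes (20.6%, 95% exact Clopper-Pearson interval 8.70 to 37.9) had a promoter peak, against 5.26% of all protein-coding genes. Without Kif1bp it was 6 of 33 (18.2%, exact interval 6.98 to 35.5). These intervals, like those below, cover counting error only. Replicate 1 had peaks at 13 of the 34 promoters (38.2%, with 14.0% over all genes), and replicate 2 at 10 (29.4%, with 11.3% over all genes). The same 10 genes had a promoter peak in both replicates, where the background was 9.04%. No list had a peak at the other 21 promoters, and 13 of 34 had one in any list, against 16.2% of all genes. The kinesins had a median of 6.0 TSS per gene and all genes a median of 3.0, which gives a kinesin more windows to meet. With the 5′-most TSS alone, 7 of the 34 had a combined promoter peak, and the share of all genes was 4.43%. What the number of TSS adds to the share was not tested.

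**Figure D1:**
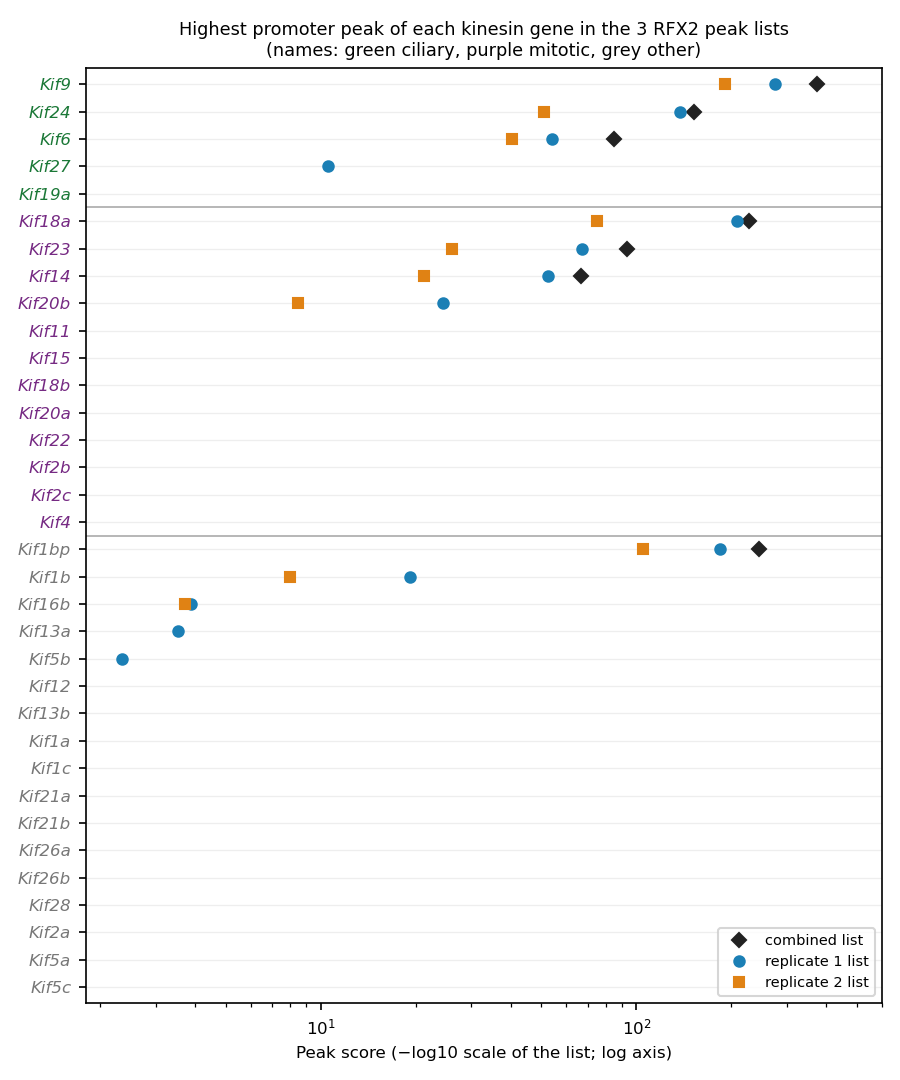
Highest promoter peak of each of the 34 genes in the combined list (diamonds), replicate 1 (circles) and replicate 2 (squares), as scores on a −log10 scale along a logarithmic axis, with genes grouped as ciliary, mitotic and other. Rows without symbols are the 21 genes with no promoter peak in any list, and the replicate 2 score lies below the replicate 1 score in each of the 10 genes that have both.

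By role, the genes were divided into 5 ciliary kinesins (Kif6, Kif9, Kif19a, Kif24 and Kif27), 12 mitotic kinesins (Kif2b, Kif2c, Kif4, Kif11, Kif14, Kif15, Kif18a, Kif18b, Kif20a, Kif20b, Kif22 and Kif23) and 17 others. Combined promoter peaks were found at 3 of the 5 ciliary genes (60%, exact interval 14.7 to 94.7), at 3 of the 12 mitotic genes (25.0%, 5.49 to 57.2) and at 1 of the 17 others (5.88%, 0.149 to 28.7), which was Kif1bp. Of the 16 others that encode kinesins none had one (upper exact limit 20.6%). Ciliary exceeded mitotic kinesins by 35.0 percentage points, with a 95% Newcombe interval of −11.5 to 67.5 that includes 0. With a peak in both replicates the counts were 3 of 5 and 4 of 12, and the difference of 26.7 points had an interval of −19.4 to 61.0. In replicate 1 alone they were 4 of 5 and 4 of 12, with a difference of 46.7 points (−3.97 to 72.1). These intervals treat the genes as independent draws, although the genes were listed by role and not sampled, so they describe the counts only. Whether ciliary and mitotic kinesins differ was not tested, and it was not resolved with this number of genes in any list.

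**Figure D2:**
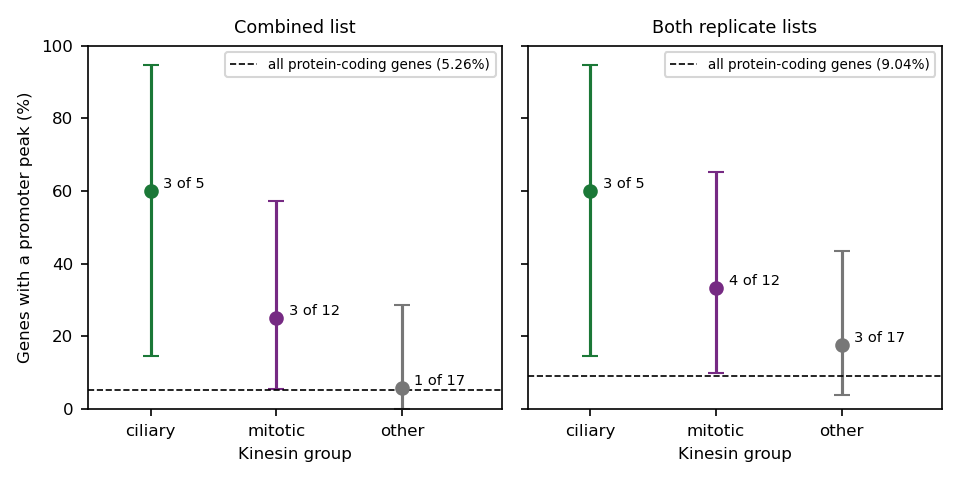
Share of ciliary, mitotic and other kinesin genes with a promoter peak in the combined list (left) and in both replicate lists (right), in percent, with exact 95% intervals as bars. The dashed lines mark all protein-coding genes at 5.26% and 9.04%, and the intervals of the ciliary and mitotic groups overlap in both panels.

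Kif9 had the strongest kinesin peak. It encodes a kinesin-9 motor of the axoneme that takes part in sperm motility. Its peak at chr9:110476427-110477816 (GRCm38) scored 274 in replicate 1 and 191 in replicate 2, and in the combined list its −log10 p was 373 at a 33.6-fold enrichment. This put it at place 8 of the 2726 combined peaks and at place 6 of the 1150 genes with a combined promoter peak. The peak also ranked high in each replicate, at place 28 in replicate 1 and place 9 in replicate 2. The summit lay 16 bp downstream of the TSS, and the centre of the X-box coincided with it. The same peak met the promoter of Klhl18, whose nearest TSS was 280 bp from the summit.

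Kif24 and Kif6, the other ciliary genes of the combined list, had weaker peaks. Kif24 encodes a kinesin-13 protein of the centriole that holds back cilium assembly. Its peak at chr4:41464265-41465463 scored 137 and 51.0 in replicates 1 and 2, and its combined −log10 p was 152 with a fold enrichment of 12, at place 340 of 1150 genes. The summit lay in the 5′ UTR, 1 bp downstream of the nearest TSS, and the peak was shared with the promoter of Nudt2, at 306 bp. Kif6 encodes the other kinesin-9 motor, known from motile cilia. Its peak at chr17:49614654-49615534 scored 54.1 and 40.4, with a combined −log10 p of 84.8, a fold enrichment of 11.8 and place 730, and it met no other promoter. Its summit was 10 bp downstream of the nearest TSS, that of a transcript marked for nonsense-mediated decay, and 23 bp upstream of the nearest protein-coding TSS.

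The remaining ciliary genes had no peak in replicate 2 or in the combined list. Kif27, a kinesin-4 protein linked to the central pair of motile cilia, had a peak of 178 bp in replicate 1 only, with a score of 10.5 at place 7824 of that list. That peak lay over the TSS, with its centre 35 bp upstream, and contained the X-box printed above. Kif19a, which shortens microtubules at ciliary tips and so limits cilium length, had no promoter peak in any list. Its promoter held no site closer to the palindrome than 5 mismatches, and the nearest combined peak was 1380 kb away, the greatest distance among the 27 genes without a combined promoter peak.

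Among the mitotic kinesins Kif18a had the strongest peak. Kif18a is a kinesin-8 motor that dampens chromosome movement at metaphase and is needed in dividing germ cells. The peak at chr2:109280020-109281156 scored 208 in replicate 1 and 75.0 in replicate 2, with a combined −log10 p of 228, a fold enrichment of 17.6 and place 129 of 1150. Its summit was 63 bp upstream of the TSS of Kif18a and 27 bp from the TSS of Mettl15, the neighbour that shares this promoter, and the X-box was centred on the summit. Which of these genes the peak belongs to cannot be told apart from its position.

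Kif23 and Kif14 completed the mitotic genes of the combined list. Kif23 encodes the kinesin-6 motor of centralspindlin, which works at the midzone during cytokinesis and is found in the bridges between germ cells. Its peak at chr9:61946640-61947221 scored 67.3 and 26.1, with a combined −log10 p of 93.2, a fold enrichment of 8.83 and place 660, and the summit was 112 bp upstream of the TSS. Kif14, a kinesin-3 motor that acts in cytokinesis, had a peak at chr1:136465678-136466729 with scores of 52.5 and 21.2, a combined −log10 p of 66.6, a fold enrichment of 8.64 and place 887. The Kif14 summit was 93 bp upstream of a TSS that belongs to a transcript with a retained intron, and 1685 bp upstream of the nearest protein-coding TSS. When only the TSS of protein-coding transcripts were used, Kif14 lost its promoter peak, and 2 of the 12 mitotic genes kept one.

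Kif20b, another kinesin-6 motor of cytokinesis, had peaks in both replicates but none in the combined list. Its stronger peak scored 24.3 in replicate 1, at place 3815, and 8.45 in replicate 2, at place 4437, with centres 156 and 178 bp upstream of the TSS. The other 8 mitotic kinesins had no promoter peak in any list. They were Kif11, which spreads the spindle poles apart, Kif15, which works beside it, the microtubule-shortening Kif2b and Kif2c, the chromosome-bound Kif4 and Kif22, and Kif18b and Kif20a.

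**Figure D3:**
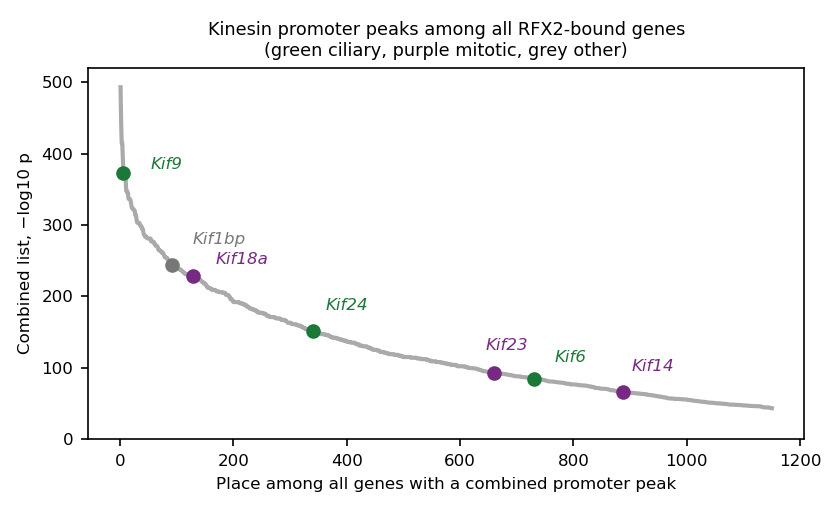
Combined −log10 p of all 1150 genes with a combined promoter peak, from the highest to the lowest (grey line), with the 7 kinesin genes as points. Kif9 lies at place 6, Kif1bp and Kif18a at 91 and 129, and Kif14 is the lowest at 887.

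Kif1bp was the single gene outside both groups with a combined promoter peak. It encodes the KIF1-binding protein, which holds the motor domains of several kinesins away from microtubules. Its peak at chr10:62578224-62579110 scored 184 in replicate 1 and 105 in replicate 2, with a combined −log10 p of 244, a fold enrichment of 22.6 and place 91 of 1150, and the summit lay 114 bp upstream of the TSS. It was thus the second highest of the 7, after Kif9. The transport kinesins Kif1b, Kif16b, Kif13a and Kif5b had promoter peaks in the replicate lists only. Kif1b, a motor for mitochondria and synaptic vesicle precursors, scored 19.1 and 7.99 in replicates 1 and 2, in overlapping peaks with centres 138 and 103 bp upstream of the TSS. The median score over all genes with a promoter peak was 17.4 in replicate 1 and 13.5 in replicate 2. The peaks of Kif16b, an endosome motor, scored 3.89 and 3.70 but did not overlap, with 565 bp between them, so that they are no repeat of the same site. Kif13a, a motor of recycling endosomes, scored 3.53 and Kif5b, a heavy chain of conventional kinesin, 2.34, both in replicate 1 only and both at an internal TSS. The other 12 genes (Kif1a, Kif1c, Kif2a, Kif5a, Kif5c, Kif12, Kif13b, Kif21a, Kif21b, Kif26a, Kif26b and Kif28) had no promoter peak in any list.

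By kinesin family, both kinesin-9 genes (Kif6 and Kif9) had combined promoter peaks. The kinesin-3 (8 genes), kinesin-6, kinesin-8 (3 genes each) and kinesin-13 (4 genes) families each had 1, namely Kif14, Kif23, Kif18a and Kif24. Promoters of close relatives differed, as Kif18a had a combined −log10 p of 228 while Kif18b had no promoter peak in any list. Likewise Kif24 had 152 while Kif2a, Kif2b and Kif2c had none. The peaks of Kif18a and Kif24 were shared with the promoters of Mettl15 and Nudt2, so that these contrasts cannot be assigned to the kinesin genes alone. No combined promoter peak was found in kinesin-1 (3 genes), kinesin-4 (4), kinesin-5 (1), kinesin-10 (1), kinesin-11 (2) and kinesin-12 (2). Since 5.26% of all protein-coding genes had one, none in families this small is no trait of the family, and families were not compared by a test.

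In strength the bound kinesins spread over most of the range of bound genes. The 3 ciliary values of −log10 p (84.8, 152 and 373) and the 3 mitotic values (66.6, 93.2 and 228) overlapped. Over the 7 genes the median −log10 p was 152, and over all 1150 bound genes it was 106. The fold enrichment ran the other way, with medians of 12 and 15. Of the 7 peaks 3 (42.9%), those of Kif9, Kif18a and Kif24, met the promoter of another protein-coding gene, as did the peaks of 27.5% of all bound genes. Leaving out such shared peaks left 4 of the 34 genes with a combined promoter peak, of which Kif6 was the only ciliary one. Over all genes, 316 of the 1150 bound ones had a shared peak, and the share of all genes left under this rule was not counted.

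The replicates ordered the 9 genes whose promoter peaks overlapped between them alike, except that Kif18a and Kif1bp, and Kif23 and Kif6, changed places. Replicate 1 gave the higher score in each of the 9, by a ratio from 1.34 in Kif6 and 1.43 in Kif9 to 2.77 in Kif18a and 2.88 in Kif20b. Over the 1135 genes with promoter peaks in all lists the median ratio was 2.05, with quartiles of 1.53 and 2.67. Kif6 and Kif9 lay below the lower quartile and Kif18a, Kif20b and Kif24 (2.69) above the upper. Kif20b had no combined peak and so was not among the 1135 genes. Kif6 ranked above Kif23 in replicate 2 (places 714 and 1277) and below it in replicate 1 (places 1635 and 1237). Scores of separate calls are not on a common scale, and with 1 value per animal no error could be given for these ratios.

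Peaks of the bound kinesins sat on or just upstream of the TSS. The summits of the 7 combined peaks lay between 114 bp upstream and 16 bp downstream of the nearest TSS of the gene. The 3 ciliary summits fell 1 to 16 bp downstream, and the 3 mitotic summits 63 to 112 bp upstream of such a TSS. This order was noticed in the data and was not tested, and it depends on the annotation, since the Kif6 summit was upstream of the protein-coding TSS.

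**Figure D4:**
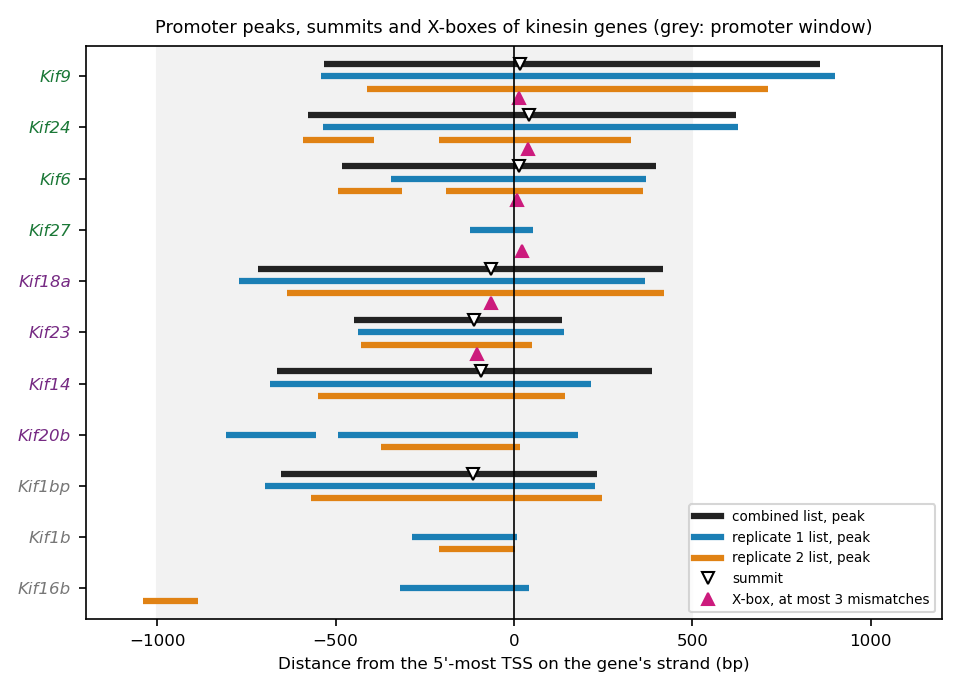
Extent of promoter peaks in the 3 lists, combined summits (open triangles) and X-boxes with at most 3 mismatches (filled triangles) for 11 kinesin genes, as distance in bp from the 5′-most TSS on the strand of the gene, with the promoter window shaded. X-boxes appear in 6 genes, and the replicate peaks of Kif16b lie apart from each other.

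An X-box was present at the summit in 5 of the 7 combined kinesin peaks, those of Kif6, Kif9, Kif18a, Kif23 and Kif24. This is all 3 ciliary peaks, 2 of the 3 mitotic peaks and not the peak of Kif1bp. Of all 1003 combined peaks in promoters 58.9% had an X-box there. Of the windows 1000 bp to the right of all 2726 combined peaks, in promoters or not, 0.990% had one. The palindrome had been chosen for its enrichment at these summits over such flanks, so this contrast was built in and is no independent support. At 2 or fewer mismatches the X-box remained in 2 of the 7, Kif9 and Kif18a, against 33.9% of promoter peaks. Promoter peaks with better X-boxes had higher scores, with a median −log10 p of 184 over 16 peaks with no mismatch, 137 over 80 with 1, 119 over 244 with 2, 102 over 251 with 3 and 88.1 over the 412 with more. Kif9 was second among the peaks with 1 mismatch. Kif18a was above 82.8% of the peaks with 2 mismatches. Among those with 3, Kif24 was above 75.7%, Kif23 above 46.6% and Kif6 above 39.8%. Kif1bp, with no X-box at the limit used, was above 97.1% of the peaks with 4 or more mismatches, and Kif14 above 32.5% of them.

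**Figure D5:**
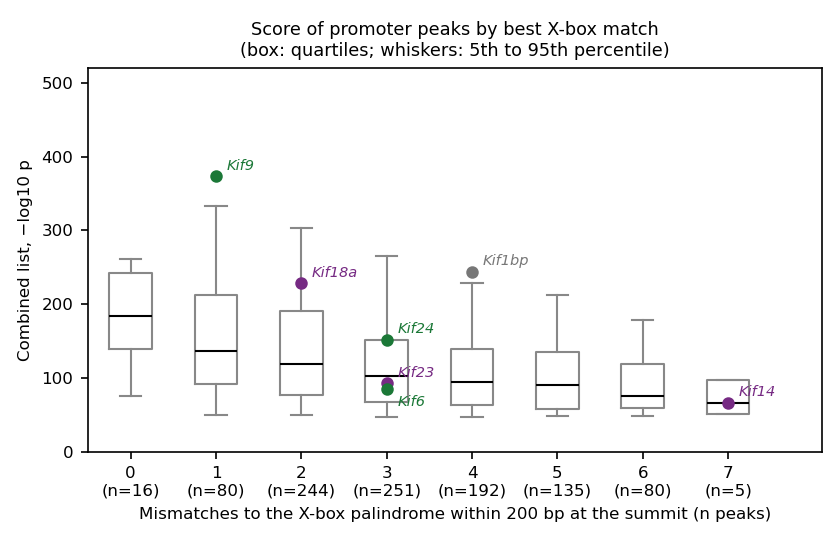
Combined −log10 p of promoter peaks by the number of mismatches of their best X-box match within 200 bp at the summit (boxes: quartiles, whiskers: 5th to 95th percentile, n peaks below each), with the 7 kinesin peaks as points. Kif9 and Kif1bp lie above the whiskers of their classes, and the other 5 lie within them.

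The promoters were also searched for X-boxes without regard to peaks, in the window around the 5′-most TSS. Peaks were still counted at any TSS of the gene, so a peak counted here need not lie in the window searched. At 3 or fewer mismatches 8 of the 34 kinesin promoters (23.5%) held an X-box, against 8.96% of all promoters of the same length. They were 4 of the 5 ciliary genes (all but Kif19a), 4 of the 12 mitotic genes (Kif11, Kif15, Kif18a and Kif23) and none of the 17 others. Of these 8 genes 5 (62.5%) had a combined promoter peak, as did 28.1% of the 1958 genes with such a promoter, and Kif27 had a peak in replicate 1. The 2 left (25.0%), Kif11 and Kif15, had no peak in any list, and neither did 51.4% of the 1958. The sites of Kif11 and Kif15 are printed with the best match in the Kif19a promoter, so that they can be set beside the occupied ones, and capitals again mark the match.
Kif11 (chr19:37376494-37376523, plus strand): cggtcctcGTGGCCTTGGCAGCaccgggtg
Kif15 (chr9:122951120-122951149, plus strand): cggacgggGTCGCCATGGCCCCcggctgca
Kif19a (chr11:114765458-114765487, plus strand): ggtgcgtcTCAGCCATGCCAGCtgtcgcgg

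Against the palindrome Kif11 carried T3G, A7T and A13G, Kif15 carried T3C, A12C and A13C, and Kif19a carried G1T, T2C, T3A, G10C and A13G. Both Kif11 and Kif15 thus had a substitution within the first 6 bases, and so did Kif6 among the occupied sites. For 1461 genes the best match at the 5′-most TSS had 3 mismatches, and 62.8% of these genes had no promoter peak in any list. With 2 mismatches it was 19.5% of 405, and with 1 it was 12.3% of 81. Each of the 11 genes with the perfect palindrome there had a peak at some promoter of the gene. Kif11 and Kif15 were therefore in the larger part of their class, and the occupied Kif6, Kif23 and Kif24 among the 18.3% of it with a combined promoter peak. The motif was searched on both strands, and a match describes the letters only. The palindrome came from the summits of the combined list. The shares of genes with a peak, here and for the 1958 genes above, are thus partly built in and no independent support.

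Outside promoters, 3 of the 34 genes had a combined peak in the gene body, and 3.17% of all genes did. All 3 were intronic and belonged to the other group. The peak in Kif5c, a neuronal heavy chain of conventional kinesin, lay at chr2:49754875-49755653, 3052 bp from the nearest TSS of the gene. It scored 78.3 and 28.7 in the replicates, with a combined −log10 p of 115 and a fold enrichment of 28.6. In Kif21b, a kinesin-4 motor of neurons and lymphocytes, the peak at chr1:136165165-136165916 scored 54.5 and 20.1 with a −log10 p of 70.7, and in Kif26b, at chr1:178590189-178591162, 31.2 and 20.1 with 47.5. The peaks of Kif5c and Kif21b were higher than the lowest of the promoter peaks, that of Kif14 at 66.6. For the 27 genes without a combined promoter peak the median distance from a TSS to the nearest combined summit was 198 kb, and it was 227 kb over all such genes on chromosomes with combined peaks.

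Of 16 related genes outside the rule (kinesin-2 subunits, Kif7, the C-terminal motors, the kinesin light chains, Cenpe and Stard9) only Kifc3, a minus-end motor, had a combined promoter peak, with a −log10 p of 49.4, at place 2352 of the replicate 1 peaks and place 2049 of the replicate 2 peaks. Kif3b, a subunit of the anterograde motor of intraflagellar transport, had peaks in both replicates, with scores of 25.4 and 6.38, and no combined peak. Kif3c scored 17.2 in replicate 1 only, Kif3a had a peak at place 8518 of the same list, Kif17 scored 9.08 in replicate 2 only, and 10 of the 16 had no promoter peak in any list. These counts are 6.25% of the 16 genes in the combined list (5.26% over all genes), 12.5% in both replicates (9.04%) and 37.5% in any list (16.2%).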

How the data were processed

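RFX2 ChIP-seq and input libraries of 2 wild type mice were processed by the authors. Per the labels, CASAVA 1.8.2, Bowtie 0.12.7 and MACS2 2.0.10.20130520 were used with build GRCm38. Per the study's methods, only uniquely mapped reads were kept, so that binding in repeats is under-represented, and reads of human origin were removed from a second run of replicate 2. The deposited lists of replicates 1 and 2 give each peak a −log10 value, of a p-value or a q-value, which was not given in the sources used here. The deposited combined list gives the summit, −log10 p, −log10 q, a score (the whole part of 10 times −log10 p) and a ratio, the fold enrichment over local background. It was taken as a pooled call from its peak names, and shares reads with the replicates. The study's methods describe a selection of peaks reproducible between replicates, and the number it kept is close to that of this list. Whether this list passed through it is not given in the sources used here. Inputs entered through the authors' calls only.

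Promoters and genes came from GENCODE mouse release 21 (GRCm38 patch 6), whereas the lists name Ensembl release 70, so TSS positions can differ. Peaks were met at 1 bp or more. Counts were checked with bedtools 2.31.1 and the overlap step on simulated data. The palindrome was derived from the combined summits against flanks 1000 bp away and searched on both strands (Python 3.11.15, numpy 2.4.6, pysam 0.24.0). Exact intervals came from scipy 1.17.1. No hypothesis test was run. Genes and lists were chosen with earlier results of these data known. Every gene with a promoter peak in the combined list or both replicates was named with its values, those with a peak in 1 replicate with that score, and the rest by name. The alternatives were other promoter windows, TSS sets, list lengths, overlap by summit or centre, wider role lists, stricter or displaced X-box windows, and each replicate alone.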

Additional observations from a re-analysis of the deposited data

How the results depend on the processing

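Under 63 alternatives for 11 counts (56 planned, 7 chosen after seeing the data), 54 counts stayed within 1.5 times the value given. Taking each replicate list in place of the combined list gave 10 to 13 of the 34 genes with a promoter peak, against 11.3% to 14.0% of all genes. In the combined list it was 7, against 5.26%. Among these were 3 to 4 ciliary, 4 mitotic and 3 to 5 other genes. A gene body peak was found in 13 to 19 genes in place of 3. The share of all genes with such a peak was counted in the combined list only (3.17%), so the counts of 13 to 19 have no background beside them. Counting only peaks that met no other promoter gave 4 of the 34 genes and 1 of the 5 ciliary genes. Of all 1150 bound genes 316 had a shared peak, and the share of all genes left was not counted. Leaving out Kif1bp took the other genes from 1 to 0. With at most 2 mismatches 2 of 7 promoter peaks had an X-box. The promoter from 500 bp upstream to 50 bp downstream kept all 7 genes, against 4.98% of all genes. The top 50% of the combined list kept 6, without Kif14, against 3.43% of all genes. No paired analysis was possible because no result came from a test. With 5 ciliary and 12 mitotic genes, 2 animals and unknown depth, the difference between the groups was described and not tested. A promoter without a peak may be bound below the authors' thresholds.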
